A study of Mus musculus with 12 samples.

Results

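The transcripts of 38 genes of DNA replication and mitosis were followed in cardiac precursors, which are early cells of the heart lineage, grown from C57BL/6 mouse embryonic stem cells. The genes were taken by symbol from a table of 35856 rows, and all 38 were found and passed the filter on low values that left 15663 genes for testing. Of these, 21 act in DNA replication and the step that starts it, and 17 act in mitosis. Each cell line carried Tir1, a plant protein that marks degron-tagged proteins for destruction when auxin is present, and an auxin-inducible degron (AID) on 1 subunit of Polycomb repressive complex 2 (PRC2), a silencing complex that methylates histone H3. SUZ12 is a core subunit that the complex cannot do without, whereas MTF2 and JARID2 join it as accessory subunits in alternative forms. The groups were SUZ12-AID, MTF2-AID and AID-JARID2 cells given indole-3-acetic acid, the auxin used here, at 50 µM, and untreated cells of the same 3 lines, with 2 libraries in each of the 6 groups. All groups carried Tir1 and were differentiated for 48 h as embryoid bodies, then for 43 h once reaggregated, and finally for 32 h in a monolayer. The labels give neither the start nor the length of the auxin treatment, nor what drives Tir1. There was 1 line per subunit and no untagged line with auxin, so effects of auxin itself, of the line and of losing the subunit cannot be told apart.

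Before DNA can be copied, Cdc6 and Cdt1 load the Mcm2 to Mcm7 helicase ring onto origins. Cdc45 and the GINS complex then switch the ring on, polymerases with the sliding clamp Pcna copy the strands, and ribonucleotide reductase and thymidylate synthase supply the building blocks. Cyclin E, encoded by Ccne1 and Ccne2, and the transcription factor E2f1 start the programme, and E2F factors act on many of these promoters. At the other end of the cycle Cdk1 with cyclin B, the Aurora and Polo kinases and the Bub checkpoint kinases drive and guard mitosis. Genes of that second wave are known for a promoter element called the cell cycle genes homology region (CHR), bound by MuvB complexes, often beside CCAAT boxes bound by NF-Y. Pluripotent cells are known for a short G1 phase and high expression of many of these genes.

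The promoters shown first are those of the 4 members of each class with the largest change that passed in any line, among members with a window, so that the elements counted below can be seen in place. Each window runs from 250 bases before to 50 bases after a RefSeq start site on GRCm38.p6, 300 bases in all, read 5′ to 3′ on the gene's own strand. Capitals mark matches on either strand to an E2F site (TTTCGCGC, TTTGGCGC, TTTCCCGC or TTTGCCGC) or to a CHR (TTTGAA or TTCGAA). Of the replication genes, the windows are those of Ccne1 at chr7:38107441-38107740, E2f1 at chr2:154569377-154569676 and Cdc45 at chr16:18811923-18812222, all on the minus strand, and Cdc6 at chr11:98907901-98908200 on the plus strand.
Ccne1: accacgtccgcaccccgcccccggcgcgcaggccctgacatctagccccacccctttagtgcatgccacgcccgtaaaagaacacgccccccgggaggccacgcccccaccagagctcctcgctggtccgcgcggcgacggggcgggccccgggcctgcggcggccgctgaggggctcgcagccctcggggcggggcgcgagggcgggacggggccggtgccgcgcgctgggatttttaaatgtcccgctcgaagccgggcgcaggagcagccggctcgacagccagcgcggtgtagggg
E2f1: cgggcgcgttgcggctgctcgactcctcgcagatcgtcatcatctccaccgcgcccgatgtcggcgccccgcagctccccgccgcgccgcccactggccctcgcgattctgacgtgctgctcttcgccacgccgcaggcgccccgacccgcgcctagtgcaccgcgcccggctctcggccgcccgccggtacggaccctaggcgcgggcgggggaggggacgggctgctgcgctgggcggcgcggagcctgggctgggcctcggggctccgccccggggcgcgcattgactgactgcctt
Cdc45: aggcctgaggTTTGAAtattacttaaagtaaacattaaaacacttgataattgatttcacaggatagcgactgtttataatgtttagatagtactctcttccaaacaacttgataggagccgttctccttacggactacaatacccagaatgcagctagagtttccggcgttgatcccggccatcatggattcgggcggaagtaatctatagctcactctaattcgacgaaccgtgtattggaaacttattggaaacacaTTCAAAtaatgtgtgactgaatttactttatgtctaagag
Cdc6: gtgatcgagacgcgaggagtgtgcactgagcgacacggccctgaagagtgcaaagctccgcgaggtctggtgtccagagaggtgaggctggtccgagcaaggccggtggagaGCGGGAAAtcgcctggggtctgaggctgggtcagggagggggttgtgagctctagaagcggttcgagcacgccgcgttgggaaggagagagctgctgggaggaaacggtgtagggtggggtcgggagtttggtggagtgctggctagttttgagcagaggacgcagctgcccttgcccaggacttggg
Of the mitosis genes, the windows are those of Mki67 at chr7:135716330-135716629, Top2a at chr11:99024140-99024439 and Ccnb2 at chr9:70421505-70421804, all on the minus strand, and Bub1b at chr2:118597961-118598260 on the plus strand.
Mki67: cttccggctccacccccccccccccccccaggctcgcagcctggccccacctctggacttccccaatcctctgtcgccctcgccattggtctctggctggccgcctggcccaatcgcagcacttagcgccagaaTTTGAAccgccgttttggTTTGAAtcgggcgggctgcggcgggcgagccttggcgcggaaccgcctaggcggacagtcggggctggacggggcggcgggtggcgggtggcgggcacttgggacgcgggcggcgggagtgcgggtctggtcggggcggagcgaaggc
Top2a: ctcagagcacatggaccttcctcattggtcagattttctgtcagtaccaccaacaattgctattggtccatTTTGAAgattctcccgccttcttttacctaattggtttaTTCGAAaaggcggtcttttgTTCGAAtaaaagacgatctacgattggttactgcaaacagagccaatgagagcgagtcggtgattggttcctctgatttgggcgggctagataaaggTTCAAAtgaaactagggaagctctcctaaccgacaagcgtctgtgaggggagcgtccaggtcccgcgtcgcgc
Ccnb2: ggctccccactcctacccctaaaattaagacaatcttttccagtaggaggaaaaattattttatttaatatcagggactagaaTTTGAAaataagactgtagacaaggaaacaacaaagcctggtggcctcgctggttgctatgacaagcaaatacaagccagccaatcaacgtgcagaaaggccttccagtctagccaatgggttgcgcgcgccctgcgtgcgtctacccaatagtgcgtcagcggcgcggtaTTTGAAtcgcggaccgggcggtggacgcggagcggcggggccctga
Bub1b: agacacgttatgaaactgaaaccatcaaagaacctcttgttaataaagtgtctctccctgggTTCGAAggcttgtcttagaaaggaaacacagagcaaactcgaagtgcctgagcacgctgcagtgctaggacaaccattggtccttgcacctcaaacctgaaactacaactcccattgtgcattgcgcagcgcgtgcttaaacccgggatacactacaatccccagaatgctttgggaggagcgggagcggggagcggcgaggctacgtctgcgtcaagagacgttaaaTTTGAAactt
Of these replication windows 1 held an E2F match, that of Cdc6, 138 bases before the RefSeq start site. That window began at 98907901, inside the gene as GENCODE gives it, with a start at 98907801. The match thus lay after the GENCODE start. Ccne1 and E2f1 held 0 matches to either motif or to CCAAT, searched on both strands as well, and Cdc45 held 2 CHR matches and 2 CCAAT. The E2f1 window lay wholly inside the gene, which in GENCODE starts at 154569892 on the minus strand. Bases before that start were not searched, so the count for E2f1 says nothing about them. All 4 mitosis windows held CHR matches, 4 in Top2a and 2 each in Mki67, Ccnb2 and Bub1b, and none held an E2F match. CCAAT was found 6 times in the Top2a window, 3 times each in those of Mki67 and Ccnb2, and once in that of Bub1b.

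Over all members, 30 of 38 had at least 1 window in the RefSeq table, with 19 windows for the replication genes and 13 for the mitosis genes. Aurkb, Ccna2, Ccne2, Foxm1, Gins1, Gins2, Mcm4 and Tpx2 had no entry there. An E2F match stood in 36.8% of the replication windows and in 7.69% of the mitosis windows, against 3.79% of the 14182 windows of genes tested and 2.26% of all 32851 windows. A CHR match stood in 21.1% of the replication windows and in 84.6% of the mitosis windows, against 13.5% of those of genes tested and 19.2% of all. CCAAT stood in 63.2% of the replication windows and in 92.3% of the mitosis windows, against 37.9% and 37.4%. The 2 mitosis windows without a CHR match were those of Birc5 and Ccnb1. In 3 cases matches in a member's window overlapped. The windows of Cdc6 and E2f1 and both windows of Mcm7 lay wholly inside the gene as GENCODE gives it. The E2F matches of Cdc6 and Mcm7 in these shares thus lay after the GENCODE start. A match says only that these letters are there, and binding was not measured.

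**Figure D1:**
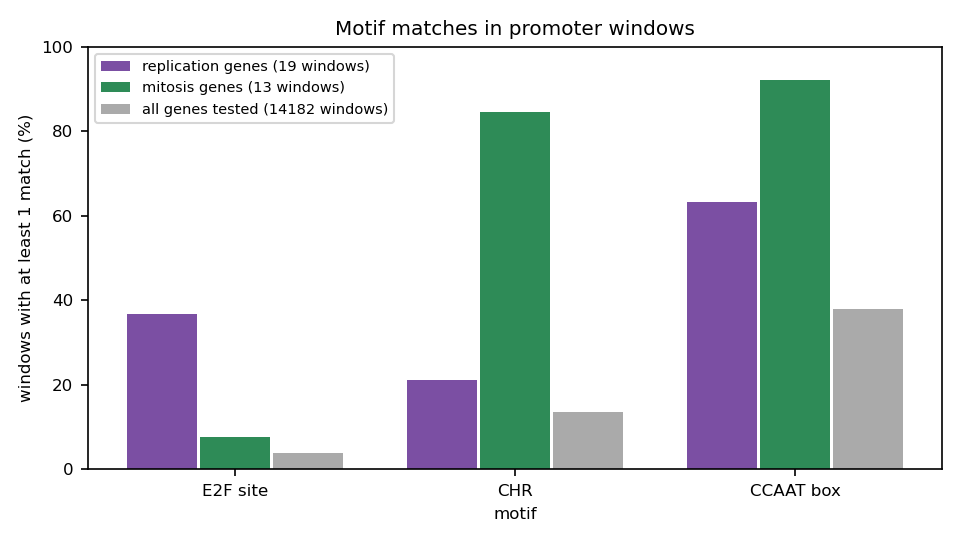
Share of promoter windows, in percent, with at least 1 match to an E2F site, a CHR or a CCAAT box, for replication genes (19 windows), mitosis genes (13 windows) and all genes tested (14182 windows). E2F matches were most frequent among replication windows (36.8%) and CHR matches among mitosis windows (84.6%). Windows were placed by RefSeq start sites, and some lay inside the gene as GENCODE gives it.

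Values are in TPM, a unit that scales reads for transcript length and for the library total, so that levels of different genes can be compared. The libraries held 10138920 to 17173072 recovered reads and 18964 to 21026 genes above 0, and the members rested on 231 (Ccne2) to 16055 reads (Top2a) per library. The degron acts on the protein, so RNA of the tagged genes does not measure depletion: Suz12 had 106.3 and 109.2 TPM in SUZ12-AID cells with auxin and 113.1 and 126.7 TPM untreated, Mtf2 had 26.0 and 24.7 TPM in MTF2-AID cells with auxin and 22.4 and 21.7 TPM untreated, and Jarid2 had 103.8 and 113.4 TPM in AID-JARID2 cells with auxin and 45.3 and 43.5 TPM untreated. Markers of the labelled cell type were present in untreated cells, where Hand1 had 1352 to 2552 TPM and Gata4 57.9 to 89.3 TPM, but Nkx2-5 was at 1.47 to 6.5 TPM and Tbx5 at 0.09 to 0.39 TPM. In AID-JARID2 cells with auxin the summed level of 10 cardiac precursor markers was 192.4 and 161.1 TPM, against 2196 and 2145 TPM untreated, and that of 8 pluripotency markers was 2608 and 2615 TPM, against 418.6 and 403.3 TPM untreated. These 2 libraries thus went against their label. Their sum of 6 neural markers, of which 4 passed the filter, was 100.9 and 109.6 TPM, against 20.3 and 18.3 TPM untreated. The neural sum in SUZ12-AID was 23.5 and 26.5 TPM with auxin and 9.88 and 11.9 TPM untreated. In SUZ12-AID the cardiac sum was 1527 and 1425 TPM with auxin and 2533 and 2843 TPM untreated, but of the 9 cardiac markers tested only the abundant Hand1 fell, 4 rose, and the median log2 fold change was 0.29. There 6 of 8 pluripotency markers rose (sum 267.3 and 329.5 TPM with auxin, 172.9 and 152.7 TPM untreated), 7 of 8 endothelial markers rose and 1 fell (sum 202.6 and 197.4 TPM with auxin, 132.5 and 168.2 TPM untreated), and 4 of 6 primitive blood markers fell (sum 7.99 and 7.32 TPM with auxin, with Hba-x at 0, and 56.5 and 44.7 TPM untreated). For these SUZ12-AID markers a rise or fall means an adjusted p under 0.05 with limma. Over all genes tested in this line 15.1% rose and 4.05% fell. Untreated SUZ12-AID replicate 1 stood apart from replicate 2 in a way that followed transcript length. The median level of chromosome 6 in SUZ12-AID, chromosome 5 in MTF2-AID and chromosome 16 in AID-JARID2 lay above that of the other lines. Both are given below with the members they touch.

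Among the replication genes the mean level over the 12 libraries was highest for Pcna, at 629.6 TPM, and for Mcm7, at 490.4 TPM, and lowest for Ccne2, at 18.1 TPM, and Pola1, the catalytic subunit of the priming polymerase, at 21.6 TPM. Among the mitosis genes it was highest for Top2a, the topoisomerase that untangles chromosomes, at 445.9 TPM, and for Cdc20, an activator of the anaphase-promoting complex, at 328.6 TPM, and lowest for Bub1 at 79.9 TPM. The summed level of the 21 replication genes was 3339 and 3283 TPM in SUZ12-AID cells with auxin and 3800.4 and 4063 TPM untreated. It was 4177 and 4161 TPM in MTF2-AID cells with auxin and 4016 and 4071 TPM untreated, and 4284 and 4346 TPM in AID-JARID2 cells with auxin and 4259.7 and 4395 TPM untreated. The auxin sums lay below the untreated ones in SUZ12-AID and above them in MTF2-AID, and those of AID-JARID2 overlapped. The summed level of the 17 mitosis genes was 2623 and 2549 TPM in SUZ12-AID cells with auxin and 2908 and 3234 TPM untreated, 2979 and 3023 TPM in MTF2-AID cells with auxin and 2837 and 2926 TPM untreated, and 3206 and 3225 TPM in AID-JARID2 cells with auxin and 3578 and 3669 TPM untreated. Here the sums with auxin lay below the untreated ones in SUZ12-AID and AID-JARID2 and above them in MTF2-AID. In bulk RNA, fewer dividing cells and less of a transcript per cell cannot be told apart.

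**Figure D2:**
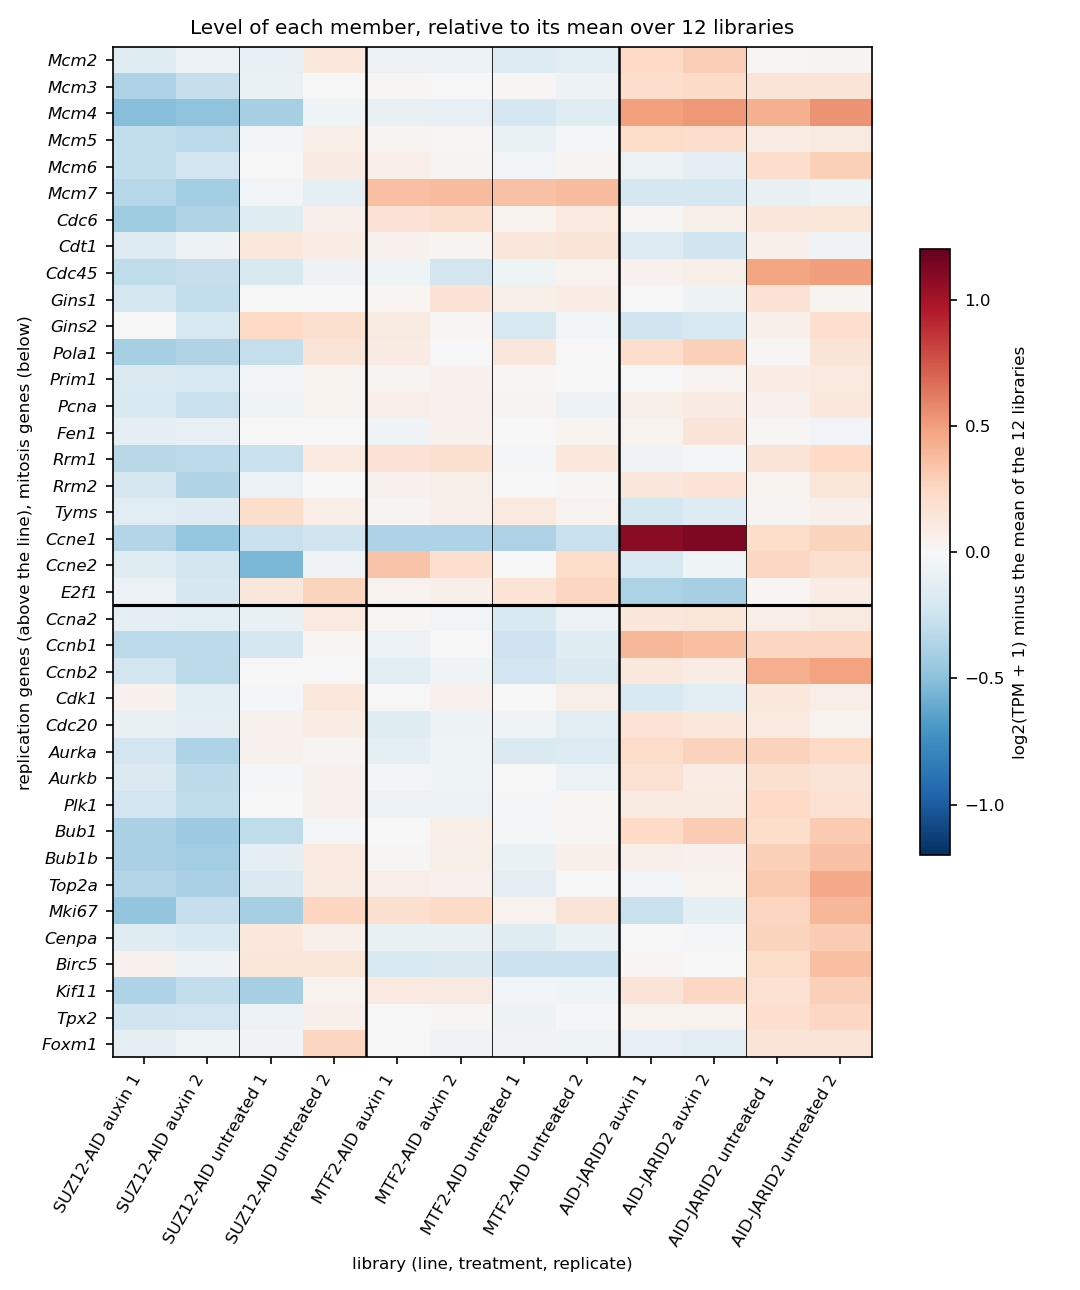
Level of each of the 38 members in each of the 12 libraries, as log2(TPM + 1) minus the member's mean over the 12 libraries, in color. Rows are genes, replication above the line and mitosis below. Columns are libraries, auxin left of untreated in each line. Both auxin libraries of SUZ12-AID were below the mean for most genes, Ccne1 stood out in AID-JARID2 with auxin, Mcm4 in all 4 AID-JARID2 libraries and Mcm7 in all 4 MTF2-AID libraries.

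The comparison within SUZ12-AID asked what happens to these transcripts when the core subunit of PRC2 is targeted. With auxin 13 of the 21 replication genes and 9 of the 17 mitosis genes fell, and 0 of either class rose. This was a test with limma on log2(TPM + 1), with p-values adjusted over all 15663 genes by the Benjamini-Hochberg method and a threshold of 0.05. Over all genes tested, 4.05% fell and 15.1% rose. The changes that passed were small, between -12.0% and -21.6% among the replication genes and between -10.8% and -24.2% among the mitosis genes. The median log2 fold change was -0.25 for the replication genes and -0.26 for the mitosis genes, against 0.06 for all genes tested. At an unadjusted p under 0.05, 18 replication and 13 mitosis genes passed. Both auxin libraries lay below both untreated ones for 19 of 21 and 14 of 17 genes, against 15.3% of all genes, and above them for 0 members, against 34% of all genes.

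The origin licensing genes made up the largest group. Of 8, 6 fell: Mcm3, Mcm5, Mcm6 and Mcm7 of the helicase ring and its loaders Cdc6 and Cdt1. Cdc6 had 40.8 and 42.6 TPM with auxin and 49.6 and 57.4 TPM untreated (log2 fold change -0.35, SE 0.07, adjusted p = 0.00928 with limma). Mcm5 had 245.3 and 240.5 TPM with auxin and 292.7 and 316.7 TPM untreated (-0.32, SE 0.05, adjusted p = 0.00126 with limma). In both genes the libraries of the groups did not overlap. Mcm7, the second highest replication gene, had 380.2 and 360.4 TPM with auxin and 469.3 and 445.5 TPM untreated (-0.30, SE 0.04, adjusted p = 0.000989 with limma), also without overlap. Mcm2 and Mcm4 did not pass, with log2 fold changes of -0.12 and -0.28 and adjusted p of 0.244 and 0.0636 with limma. Mcm2 lies on chromosome 6, whose median log2 fold change in this comparison was 0.17. With each chromosome's median removed from every library, a setting added after the data were seen, Mcm2 had -0.28 and Mcm4 -0.33, and both passed.

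Of the helicase activators, 2 of 3 fell, Gins1 and Gins2, though Gins1 (adjusted p = 0.0489 with limma) passed in 7 of 25 settings beside the reported one and in 0 of 12 with a library left out, while Cdc45 had -0.17 (adjusted p = 0.131 with limma). Gins2, a subunit of GINS, had 172.5 and 151.2 TPM with auxin and 204.1 and 197.3 TPM untreated (log2 fold change -0.31, SE 0.08, adjusted p = 0.021 with limma). Its 2 auxin libraries differed more from each other than the untreated ones but did not reach them. Of 4 synthesis genes, 2 fell. Pcna had 553.0 and 523.0 TPM with auxin and 605.8 and 647.8 TPM untreated, again without overlap (-0.22, SE 0.05, adjusted p = 0.015 with limma), and Prim1, the primase, fell by 0.18 on the log2 scale. Pola1 and Fen1, the flap endonuclease, did not pass. Of 3 genes of nucleotide supply, Rrm2 and Tyms fell, and Rrm1 had -0.25 (adjusted p = 0.128 with limma). Of the 3 genes at the G1/S step, E2f1 fell. It had 40.4 and 36.9 TPM with auxin and 46.7 and 51.4 TPM untreated (-0.33, SE 0.08, adjusted p = 0.0122 with limma), with no overlap between the groups. Ccne1 had -0.15 and Ccne2 0.11, and neither passed. The value of Ccne2 was negative with quantile normalization and without untreated replicate 1.

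Among the mitosis genes, 4 of 5 kinases fell. The checkpoint kinase Bub1b had 100.3 and 98.0 TPM with auxin and 120.9 and 142.4 TPM untreated (log2 fold change -0.40, SE 0.08, adjusted p = 0.00586 with limma), the largest change of a member that passed. The Aurora kinase Aurka had 123.0 and 111.3 TPM with auxin and 149.2 and 146.8 TPM untreated (-0.34, SE 0.06, adjusted p = 0.0028 with limma). The auxin libraries lay lower in each case. The Polo-like kinase Plk1 had 218.6 and 207.5 TPM with auxin and 255.9 and 266.5 TPM untreated (-0.29, SE 0.04, adjusted p = 0.00168 with limma). Aurkb fell by 0.26 on the log2 scale, and Bub1 had -0.26 with a wider spread (adjusted p = 0.0702 with limma). Among 4 chromosome and centromere genes Top2a and Cenpa, the centromeric histone, fell. Top2a had 344.1 and 335.9 TPM with auxin and 390.5 and 474.9 TPM untreated (-0.34, SE 0.08, adjusted p = 0.0181 with limma). The untreated libraries spread widely, but both were above the auxin ones. Of the cyclins and their partners 2 of 5 fell, Ccnb2 and Cdc20. Cdc20 had 308.2 and 304.9 TPM with auxin and 339.0 and 349.0 TPM untreated (-0.17, SE 0.05, adjusted p = 0.0396 with limma), the smallest change that passed, and it passed in 12 of 25 settings beside the reported one. Of the spindle genes the microtubule factor Tpx2 fell and the motor Kif11 did not pass, nor did the transcription factor Foxm1. Foxm1 lies on chromosome 6, as Mcm2 does.

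These calls depended on single libraries and on how the spread was estimated. Without SUZ12-AID auxin replicate 2, 6 replication and 5 mitosis genes passed, and without untreated replicate 1 the mitosis genes numbered 15. With a variance weight per line 5 and 5 passed, with no trend of the variance 7 replication genes, and from the SUZ12-AID libraries alone 0 and 0. With median-of-ratios scaling 14 mitosis genes fell, and with chromosome medians removed 20 replication genes. With the length trend removed, the other setting added after the data were seen, 20 and 16 fell. Lower calls over all genes grew as well, from 635 as reported to 1338 with chromosome medians removed. They were 2323 of 13168 genes with the length trend removed. Mcm3, Mcm5, Mcm6, Mcm7, Cdc6, Aurka, Bub1b, Ccnb2, Cenpa and Plk1 passed in 24 of 25 settings beside the reported one, all but the fit of this line alone. Over all genes 2362 were higher and 635 lower as reported, 2096 higher and 1549 lower when scaled by median of ratios, and 1605 higher and 1418 lower after quantile normalization. The median over all genes moved by more than 0.1 on the log2 scale, to -0.04, with the last of these. Members called lower by that scaling again numbered 13 and 9, and 0 were higher. Cardiac, pluripotency, endothelial and blood markers moved with auxin in this line as given above, most of the cardiac markers that passed upwards and Hand1 downwards, and their part in the result was not tested.

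**Figure D3:**
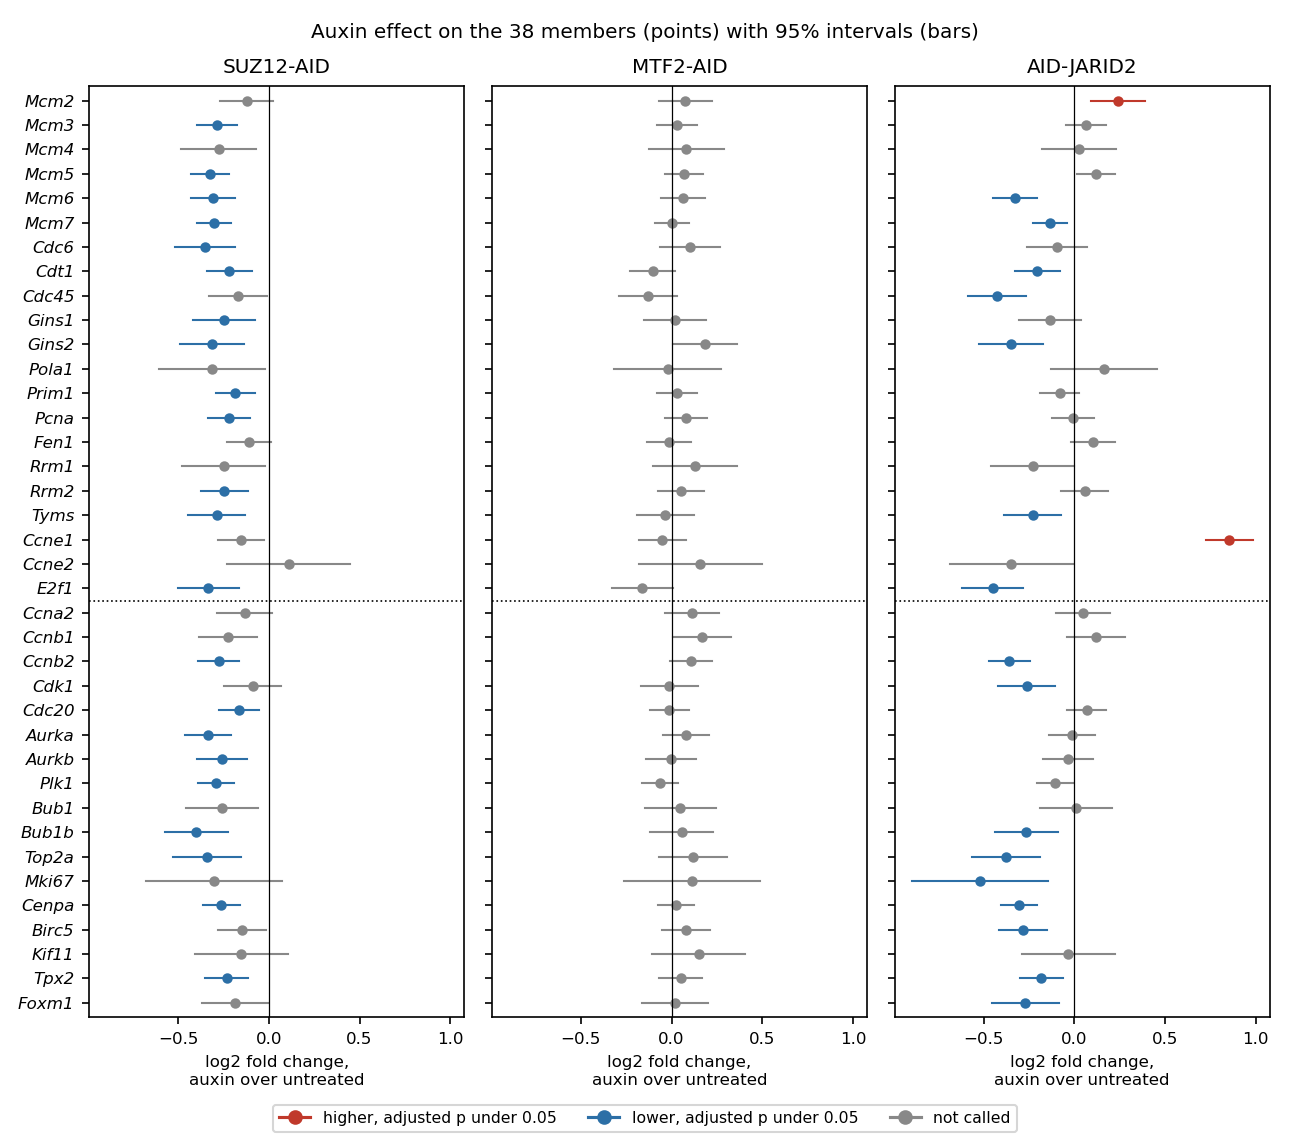
Log2 fold change of each member, auxin over untreated on log2(TPM + 1), in the 3 lines, with 95% intervals from limma. Replication genes stand above the dotted line. In SUZ12-AID 22 members fell, in MTF2-AID 0 passed, and in AID-JARID2 16 fell while Mcm2 and Ccne1 rose.

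In untreated SUZ12-AID cells, 30 of 38 members were lower in replicate 1 than in replicate 2, and the gap was wider for longer transcripts. The log2 difference ran from 0.14 to -0.66, the last for Mki67, a proliferation marker with the longest transcript of all members at 10061 bases. Spearman's rho between the difference and the length of the longest coding transcript was -0.64 over the 38 members and -0.62 over 13168 genes with a length. It was -0.43 over the members in SUZ12-AID cells with auxin and -0.35 over all genes, and in the other 4 groups it lay between -0.45 and 0.26 over the members and between -0.19 and 0.15 over all genes. These correlations are across genes of the same 2 libraries, which are not independent replicates. Mki67 had 98.3 and 113.3 TPM with auxin and 103.6 and 164.3 TPM untreated, so the groups overlapped (log2 fold change -0.30, SE 0.17, adjusted p = 0.261 with limma). With the length trend removed Mki67 had -0.38 and passed. In that setting the median log2 fold change over all genes moved down as well, from 0.06 to -0.02. Without untreated replicate 2 the values of Mki67 and Kif11 were positive, at 0.03 and 0.07.

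**Figure D4:**
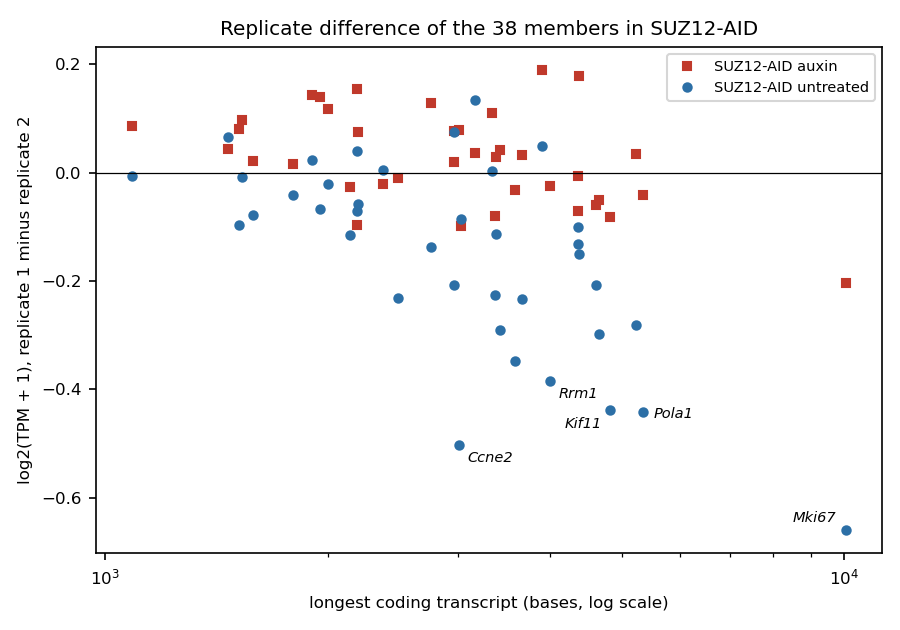
Difference in log2(TPM + 1) between replicate 1 and replicate 2 for each of the 38 members in SUZ12-AID cells, against the length of the longest coding transcript (bases, log axis), squares for auxin and circles for untreated. In untreated cells most members lay below 0, with Mki67 lowest at -0.66.

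In AID-JARID2 the targeted protein was the accessory subunit JARID2. With auxin 2 of the 21 replication genes rose and 7 fell, and 9 of the 17 mitosis genes fell while 0 rose (10 mitosis genes of either direction at an unadjusted p under 0.05 with limma). Over all genes tested 19.5% rose and 17% fell in this line. The median log2 fold change was -0.10 for the replication genes and -0.18 for the mitosis genes, against 0.01 for all genes. Both auxin libraries lay below both untreated ones for 12 replication and 10 mitosis genes, against 35% of all genes, and above them for 6 and 3, against 37.7%.

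Ccne1, which encodes cyclin E1, rose by 81%, the largest change of any member in any line. It had 224.0 and 229.5 TPM in AID-JARID2 cells with auxin and 123.1 and 126.7 TPM untreated (log2 fold change 0.86, SE 0.06, adjusted p = 2.17e-06 with limma). The 8 libraries of the other lines had 76.0 to 88.8 TPM, so Ccne1 was higher in AID-JARID2 even without auxin. This call was made in 25 of 25 settings beside the reported one, with log2 fold changes of 0.83 to 0.88. Its partner gene Ccne2 had 15.4 and 17.1 TPM with auxin and 21.4 and 20.5 TPM untreated, lower in both auxin libraries, but did not pass (-0.35, SE 0.15, adjusted p = 0.105 with limma). E2f1 fell and moved against Ccne1. It had 32.5 and 31.9 TPM with auxin and 43.3 and 45.3 TPM untreated (-0.45, SE 0.08, adjusted p = 0.00106 with limma). Thus within the 3 genes of the G1/S step 1 rose, 1 fell and 1 did not pass.

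The 6 genes of the helicase ring also differed among themselves. Mcm2 rose, with 395.7 and 412.0 TPM with auxin and 340.3 and 343.0 TPM untreated (log2 fold change 0.24, SE 0.07, adjusted p = 0.0169 with limma). Mcm6 fell, with 199.9 and 193.9 TPM with auxin and 241.2 and 254.0 TPM untreated (-0.33, SE 0.05, adjusted p = 0.000942 with limma). In both the groups were apart. Mcm7 fell slightly, with 417.7 and 415.5 TPM with auxin and 453.7 and 460.3 TPM untreated (-0.13, SE 0.04, adjusted p = 0.0302 with limma). Mcm3, Mcm4 and Mcm5 had 0.06, 0.03 and 0.12 and did not pass. Under median-of-ratios scaling and quantile normalization all 6 kept these signs, but Mcm7 did not pass with median-of-ratios scaling or with chromosome medians removed, and Mcm4 turned negative (-0.02) with the second of these. Cdt1 of the loaders fell, and Cdc6 did not pass (-0.10, adjusted p = 0.35 with limma).

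Cdc45 and Gins2 of the helicase activators fell. Cdc45 had 78.3 and 79.3 TPM with auxin and 105.0 and 107.5 TPM untreated (log2 fold change -0.43, SE 0.07, adjusted p = 0.00109 with limma). The auxin level was near that of the other lines, where Cdc45 had 60.8 to 77.8 TPM. Gins2 had 146.0 and 150.7 TPM with auxin and 179.8 and 198.6 TPM untreated (-0.35, SE 0.08, adjusted p = 0.00655 with limma), without overlap. Of the 4 synthesis genes none passed, and the clamp Pcna had 660.7 and 672.2 TPM with auxin and 652.7 and 685.8 TPM untreated, with overlapping groups (-0.01, SE 0.05, adjusted p = 0.956 with limma). Tyms fell, and both subunits of ribonucleotide reductase, Rrm1 and Rrm2, did not pass.

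Of the mitosis genes, all 4 of the chromosome and centromere group fell. Mki67 had 114.1 and 126.2 TPM with auxin and 164.4 and 180.9 TPM untreated (log2 fold change -0.52, SE 0.17, adjusted p = 0.0353 with limma), and it passed in 17 of 25 settings beside the reported one. Top2a had 431.4 and 454.0 TPM with auxin and 548.9 and 601.8 TPM untreated (-0.38, SE 0.08, adjusted p = 0.00558 with limma). Cenpa had 211.0 and 208.1 TPM with auxin and 255.5 and 262.4 TPM untreated (-0.30, SE 0.05, adjusted p = 0.000497 with limma). The groups were apart in all of these. The survivin gene Birc5 fell by 0.28 on the log2 scale. Of the cyclins and their partners Ccnb2 and Cdk1 fell. Ccnb2 had 231.4 and 225.7 TPM with auxin and 288.4 and 297.9 TPM untreated (-0.36, SE 0.05, adjusted p = 0.000393 with limma), while its sister cyclin Ccnb1 had 212.8 and 208.0 TPM with auxin and 193.6 and 193.9 TPM untreated and did not pass (0.12, adjusted p = 0.236 with limma). In Ccnb2 the auxin libraries were lower and in Ccnb1 higher than the untreated ones. Of the 5 kinases only Bub1b passed, at -0.26. Aurka, Aurkb, Bub1 and Plk1 had values between -0.10 and 0.01, and Cdc20, at 367.7 and 357.1 TPM with auxin and 354.4 and 337.0 TPM untreated, had 0.07 (adjusted p = 0.316 with limma). Tpx2 and Foxm1 fell, and Kif11 did not pass.

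When any 1 of the 4 AID-JARID2 libraries was left out, 4 mitosis genes passed, and without untreated replicate 1 or 2 or auxin replicate 2 the replication genes that passed numbered 5. With no trend of the variance 5 mitosis genes passed. With these calls 8 of 9 cardiac markers fell, and 7 of 8 pluripotency markers rose and 1 fell, against 19.5% of all genes that rose and 17% that fell. The sum of 8 endothelial markers was 27.4 and 26.1 TPM with auxin and 148.4 and 149.96 TPM untreated, with Emcn at 0 in both groups, but 2 of them fell, Kdr and Pecam1, 1 rose and the median log2 fold change was 0.05. The part of these markers in the result was not tested.

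**Figure D5:**
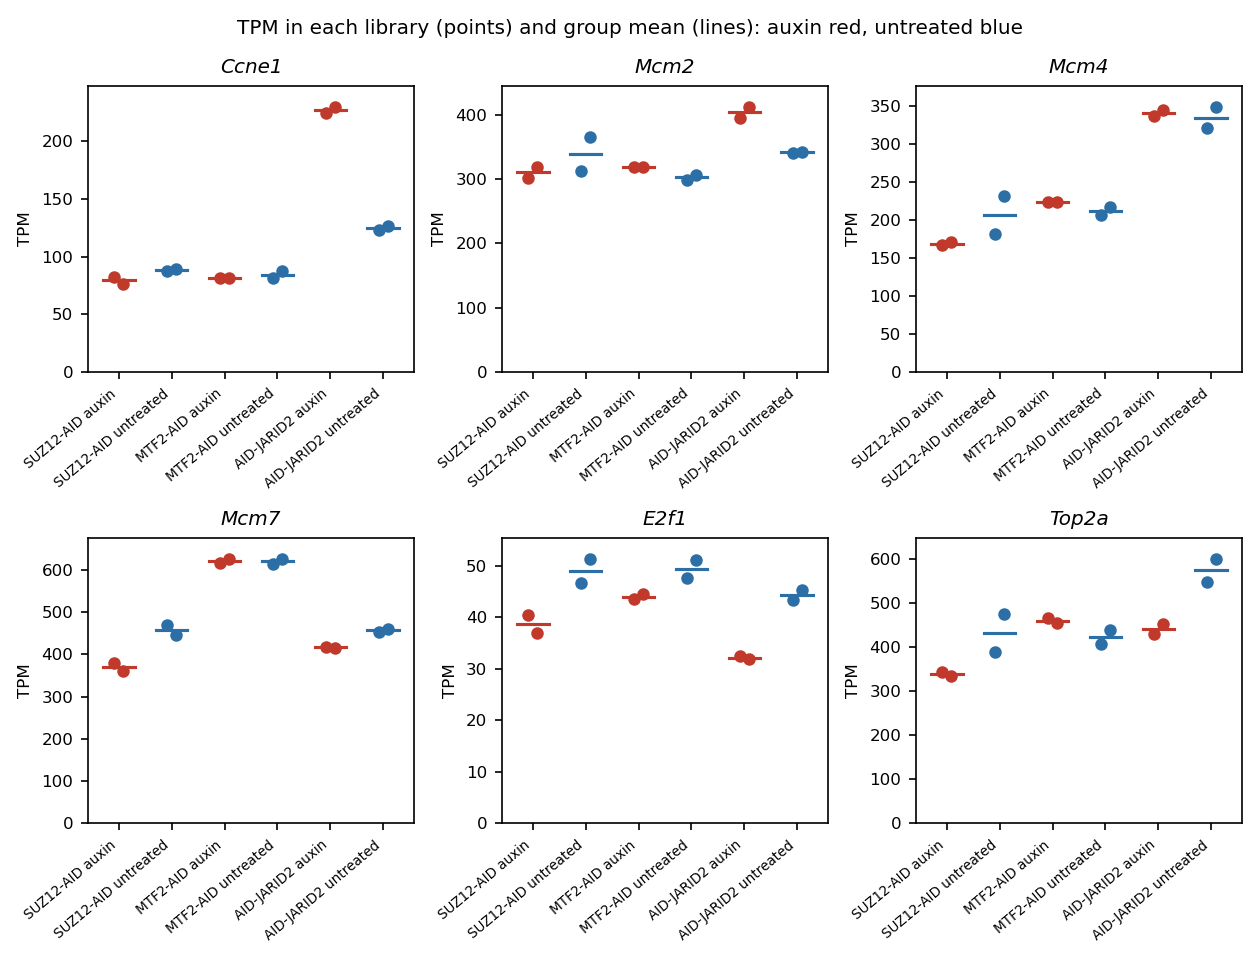
TPM of 6 members in each library (points, 2 per group) with the group mean (line), auxin in red left of untreated in blue in each line. Ccne1 reached 224.0 and 229.5 TPM in AID-JARID2 cells with auxin. Mcm4 was highest in the 4 AID-JARID2 libraries and Mcm7 in the 4 MTF2-AID libraries, with and without auxin.

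In MTF2-AID, 0 of 21 replication genes and 0 of 17 mitosis genes passed in either direction with limma. Over all genes tested 0.0447% rose and 0.0192% fell, so few genes of any kind were called in this line. At an unadjusted p under 0.05, 1 gene of each class passed, Gins2 and Ccnb1. The log2 fold changes of the members lay between -0.16 and 0.18, with medians of 0.03 for the replication and 0.06 for the mitosis genes against 0.01 for all genes. The smallest adjusted p was 0.485 with limma. The 95% intervals reached from -0.33, for E2f1, to 0.50, for Ccne2, so changes beyond these bounds lay outside every interval. Both auxin libraries lay above both untreated ones for 10 replication and 9 mitosis genes, against 24.1% of all genes, and below them for 2 and 1, against 21.8%. Pcna had 662.1 and 650.8 TPM with auxin and 643.2 and 598.3 TPM untreated, Mcm7 had 616.6 and 625.0 TPM with auxin and 614.1 and 626.0 TPM untreated, and Top2a had 466.1 and 455.1 TPM with auxin and 408.7 and 439.6 TPM untreated. Mcm7 overlapped, and the auxin libraries of Pcna and Top2a were higher by a margin that did not pass. Cdc20 had 296.3 and 313.9 TPM with auxin and 316.7 and 298.7 TPM untreated, again overlapping. The endothelial sum was 127.7 and 120.1 TPM with auxin and 171.2 and 169.8 TPM untreated in this line. The primitive blood sum was 6.59 and 3.93 TPM with auxin and 16.7 and 12.2 TPM untreated. The cardiac sum was 1667 and 1649 TPM with auxin and 1625 and 1607 TPM untreated. The pluripotency sum was 196.3 and 191.5 TPM with auxin and 192.1 and 200.5 TPM untreated.

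Whether the lines differed in their response was tested as the difference of 2 auxin effects, each against the line's own untreated cells. The differences share effects with one another, so they are not independent. The effect in MTF2-AID was higher than that in SUZ12-AID for 8 replication and 8 mitosis genes and lower for 0, against 2% higher and 9.11% lower over all genes, and at an unadjusted p under 0.05 13 and 12 genes passed with limma. The largest were Gins2, with a log2 difference of 0.49 (SE 0.11, adjusted p = 0.0198 with limma), and Cdc6, with 0.45 (SE 0.11, adjusted p = 0.0224 with limma), among the replication genes. Among the mitosis genes they were Top2a, with 0.46 (SE 0.12, adjusted p = 0.0338 with limma), and Bub1b, with 0.46 (SE 0.11, adjusted p = 0.026 with limma). In MTF2-AID, Gins2 had 186.1 and 175.7 TPM with auxin and 150.7 and 168.4 TPM untreated, Cdc6 had 62.1 and 63.0 TPM with auxin and 56.8 and 59.7 TPM untreated, and Bub1b had 132.8 and 138.0 TPM with auxin and 123.9 and 136.9 TPM untreated. In Gins2 and Cdc6 both auxin libraries were above both untreated ones and in Bub1b the groups overlapped, where in SUZ12-AID the auxin libraries of all 3 were below. The counts were sensitive to single libraries: without SUZ12-AID untreated replicate 1 they were 13 and 13, without SUZ12-AID auxin replicate 2 4 and 2, without MTF2-AID auxin replicate 1 2 and 2, without MTF2-AID auxin replicate 2 or untreated replicate 1 4 and 2, and without MTF2-AID untreated replicate 2 5 and 5. Without any 1 AID-JARID2 library, 4 or 5 mitosis genes passed.

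The effect in AID-JARID2 was higher than that in SUZ12-AID for 5 replication and 3 mitosis genes and lower for 0, against 9% higher and 15% lower over all genes, and at an unadjusted p under 0.05 12 and 5 genes passed with limma. Ccne1 led with a log2 difference of 1.01 (SE 0.08, adjusted p = 2.13e-05 with limma), followed by Mcm5 with 0.44 (SE 0.07, adjusted p = 0.00101 with limma). Mcm5 had 348.9 and 348.5 TPM in AID-JARID2 cells with auxin and 319.2 and 322.8 TPM untreated. Its auxin libraries were above the untreated ones, against below in SUZ12-AID. Mcm2, Mcm3 and Rrm2 also passed, and among the mitosis genes Ccnb1 (0.34, SE 0.10, adjusted p = 0.0343 with limma), Aurka (0.33, SE 0.08, adjusted p = 0.0149 with limma) and Cdc20. Aurka had 168.3 and 174.3 TPM in AID-JARID2 cells with auxin and 175.0 and 170.3 TPM untreated, with overlapping groups. For the members that fell in both lines (Mcm6, Mcm7, Cdt1, Gins2, Tyms, E2f1, Ccnb2, Bub1b, Top2a, Cenpa and Tpx2), the differences lay between -0.11 and 0.17 and did not pass. Without SUZ12-AID untreated replicate 1 the counts were 9 and 7, and without untreated replicate 2 8 replication genes passed. Without AID-JARID2 auxin replicate 2 they were 3 and 0, without AID-JARID2 untreated replicate 1 3 replication genes and without untreated replicate 2 0 mitosis genes passed. Without AID-JARID2 auxin replicate 1 or SUZ12-AID auxin replicate 2 the mitosis genes numbered 1, and without AID-JARID2 untreated replicate 1 they numbered 2.

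Set against MTF2-AID, the effect in AID-JARID2 was higher for 1 replication gene, Ccne1 (log2 difference 0.91, SE 0.08, adjusted p = 3.5e-05 with limma), and lower for 2 replication and 5 mitosis genes, against 12.6% higher and 11.7% lower over all genes. At an unadjusted p under 0.05, 8 and 9 genes of either direction passed with limma. Gins2 (-0.53, SE 0.11, adjusted p = 0.00663 with limma) and Mcm6 were the replication genes that were lower. Top2a (-0.50, SE 0.12, adjusted p = 0.0123 with limma), Ccnb2 (-0.47, SE 0.07, adjusted p = 0.00114 with limma), Birc5, Cenpa and Tpx2 were the mitosis genes. Ccnb2 had 193.2 and 204.8 TPM in MTF2-AID cells with auxin and 180.8 and 188.4 TPM untreated, where AID-JARID2 had moved the other way. Without either untreated library of SUZ12-AID, 8 genes of each class passed. Without MTF2-AID untreated replicate 1, AID-JARID2 untreated replicate 2 or AID-JARID2 auxin replicate 1, 3 mitosis genes passed. Scaled by median of ratios, 1 replication gene was higher and 4 were lower.

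Untreated cells of the 3 lines differed in these genes without any auxin. These 3 comparisons share libraries with each other and with the comparisons above. In untreated AID-JARID2 cells, 6 replication and 10 mitosis genes were higher than in untreated SUZ12-AID cells and 0 were lower, against 15.2% and 12.4% of all genes, and 8 and 13 genes passed at an unadjusted p under 0.05 with limma. Scaled by median of ratios, 4 replication genes were higher and 1 lower, and after quantile normalization 5 were higher and 1 lower. In untreated AID-JARID2 cells, 7 replication and 13 mitosis genes were higher than in untreated MTF2-AID cells, and 1 replication gene and 0 mitosis genes were lower, against 15.8% and 17.6% of all genes. At an unadjusted p under 0.05, 10 and 15 genes of either direction passed with limma, and with quantile normalization 4 replication genes were higher and 2 lower. In untreated MTF2-AID cells, 1 replication gene was higher and 1 lower than in untreated SUZ12-AID cells, and 0 mitosis genes were higher and 4 lower, against 5.5% and 3.15% of all genes. At an unadjusted p under 0.05, 4 and 5 genes passed with limma in that pair, and with median-of-ratios scaling, where all genes split 761 higher to 739 lower against 861 to 494 as reported, 1 replication gene was higher and 2 lower.

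Mcm4 differed most between lines among the replication genes. It had 321.0 and 348.4 TPM in untreated AID-JARID2 cells, 206.4 and 216.7 TPM in untreated MTF2-AID cells and 181.5 and 231.1 TPM in untreated SUZ12-AID cells. The log2 difference of AID-JARID2 was 0.66 from MTF2-AID (SE 0.09, adjusted p = 0.000437 with limma) and 0.70 from SUZ12-AID (SE 0.09, adjusted p = 0.000368 with limma). Cdc45 was likewise higher in untreated AID-JARID2 cells, by 0.50 and 0.61 on the log2 scale. Both genes lie on chromosome 16 (mm10, Mcm4 at chr16:15623897-15637400 and Cdc45 at chr16:18780447-18811987, both on the minus strand), and over its 431 genes the median log2 difference of untreated AID-JARID2 was 0.14 from MTF2-AID and 0.22 from SUZ12-AID, against -0.01 and 0.05 over the other chromosomes. With chromosome medians removed Mcm4 kept differences of 0.52 and 0.46 and Cdc45 of 0.35 and 0.37, and all 4 passed. The kinase gene Prkdc starts 466 bases from Mcm4 on the other strand. Its mean was 20.7 ± 1.62 TPM in AID-JARID2 cells with auxin and 24.0 ± 1.52 TPM untreated, and 9.37 to 13.0 TPM in the groups of the other lines (SD, n = 2). In untreated cells Prkdc was 0.99 higher in AID-JARID2 than in MTF2-AID (adjusted p = 0.00289 with limma) and 1.12 higher than in SUZ12-AID (adjusted p = 0.00189 with limma) on the log2 scale. Of the members, 3 more have such a partner within 1000 bases, and with auxin in SUZ12-AID, where Gins1 and Aurka fell, none of these partners passed: Abhd12, beside Gins1, had 0.18, Cstf1, beside Aurka, had -0.003, and Rhno1, beside Foxm1, had -0.06.

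Mcm7 and Gins2 set untreated MTF2-AID apart from both other lines. Gins2 was lower there, with 150.7 and 168.4 TPM in untreated MTF2-AID cells, 179.8 and 198.6 TPM in untreated AID-JARID2 cells and 204.1 and 197.3 TPM in untreated SUZ12-AID cells. It passed against SUZ12-AID (log2 difference -0.33, SE 0.08, adjusted p = 0.0306 with limma), and AID-JARID2 was 0.25 above MTF2-AID (SE 0.08, adjusted p = 0.0374 with limma), a call made in 12 of 23 settings beside the reported one. Mcm7 was higher. It had 614.1 and 626.0 TPM in untreated MTF2-AID cells, 453.7 and 460.3 TPM in untreated AID-JARID2 cells and 469.3 and 445.5 TPM in untreated SUZ12-AID cells. Untreated MTF2-AID was 0.44 above untreated SUZ12-AID on the log2 scale (SE 0.04, adjusted p = 0.000448 with limma), and untreated AID-JARID2 was at -0.44 from untreated MTF2-AID (SE 0.04, adjusted p = 3.69e-05 with limma). Mcm7 lies on chromosome 5 (mm10, chr5:138164583-138172422, minus strand), whose 929 genes had a median log2 difference of 0.25 between untreated MTF2-AID and SUZ12-AID, against 0.06 over the other chromosomes. With chromosome medians removed the difference of Mcm7 was 0.20 and did not pass (adjusted p = 0.116 with limma), and that from AID-JARID2 was -0.26 and passed. Tyms and Cenpa lie on chromosome 5 too. The median level of a chromosome, relative to all genes, was shifted upwards in every library of a line for chromosome 5 in MTF2-AID (0.10 to 0.12) and chromosome 16 in AID-JARID2 (0.09 to 0.14). So it was for chromosome 6 in SUZ12-AID, but there the size differed with treatment, 0.17 and 0.18 with auxin and 0.09 and 0.08 untreated. DNA copy number was not measured, and its part in these levels was not tested.

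Among the mitosis genes the untreated lines differed most in Ccnb2, Birc5 and Ccnb1. Ccnb2 had 288.4 and 297.9 TPM in untreated AID-JARID2 cells, 180.8 and 188.4 TPM in untreated MTF2-AID cells and 212.2 and 213.5 TPM in untreated SUZ12-AID cells. The 3 lines did not overlap, and AID-JARID2 was 0.66 above MTF2-AID (SE 0.05, adjusted p = 9.17e-06 with limma) and 0.46 above SUZ12-AID (SE 0.05, adjusted p = 0.000132 with limma) on the log2 scale. Birc5 had 149.1 and 165.0 TPM in untreated AID-JARID2 cells, 107.0 and 106.9 TPM in untreated MTF2-AID cells and 141.8 and 141.5 TPM in untreated SUZ12-AID cells, so MTF2-AID stood low (-0.40 from SUZ12-AID, SE 0.06, adjusted p = 0.0034 with limma). Ccnb1 had 193.6 and 193.9 TPM in untreated AID-JARID2 cells, 136.0 and 145.7 TPM in untreated MTF2-AID cells and 139.8 and 164.3 TPM in untreated SUZ12-AID cells, where AID-JARID2 stood high. Bub1 had 91.2 and 98.3 TPM in untreated AID-JARID2 cells and 63.7 and 78.2 TPM in untreated SUZ12-AID cells (0.42, SE 0.09, adjusted p = 0.00633 with limma). The summed pluripotency markers were 418.6 and 403.3 TPM in untreated AID-JARID2 cells, 192.1 and 200.5 TPM in untreated MTF2-AID and 172.9 and 152.7 TPM in untreated SUZ12-AID cells, but the 8 markers went both ways. Against MTF2-AID 3 were higher and 4 lower (median log2 difference -0.37), where 15.8% of all genes were higher and 17.6% lower. Against SUZ12-AID 3 were higher, among them Pou5f1, and 1 was lower (median 0.05), where 15.2% of all genes were higher and 12.4% lower. The part of these markers in the result was not tested. With 1 library left out the count of AID-JARID2 against SUZ12-AID fell to 3 replication genes without SUZ12-AID untreated replicate 1, to 3 and 4 without AID-JARID2 untreated replicate 2, and rose to 11 replication genes without SUZ12-AID untreated replicate 2. Against MTF2-AID it was 5 replication genes without MTF2-AID untreated replicate 1 and 4 without AID-JARID2 untreated replicate 2. For MTF2-AID against SUZ12-AID it was 7 and 7 without SUZ12-AID untreated replicate 2, 1 and 1 without MTF2-AID untreated replicate 1, and 1 mitosis gene without MTF2-AID untreated replicate 2. In that pair 2 mitosis genes passed without any 1 library of AID-JARID2 or of MTF2-AID with auxin, and 1 replication gene without either AID-JARID2 auxin library.

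Genes of the same pathways outside the 38 were counted for comparison. Among 46 further replication genes, SUZ12-AID had 0 that rose and 19 that fell (28 at an unadjusted p under 0.05 with limma), MTF2-AID had 0 and 0 (3 unadjusted), and AID-JARID2 had 8 that rose and 8 that fell, which is 17.4% each way and near the 19.5% and 17% of all genes in that line. In SUZ12-AID 41.3% fell, against 4.05% of all genes. Their median log2 fold changes were -0.21, 0.05 and -0.02. In SUZ12-AID Uhrf1, which recruits DNA methylation to new DNA, had 184.3 and 187.1 TPM with auxin and 243.0 and 261.1 TPM untreated (log2 fold change -0.44, SE 0.05). The helicase Recql4, the polymerase subunit Pole and the fork protein Timeless fell as well, by 0.40, 0.37 and 0.35 on the log2 scale. In AID-JARID2 the clamp loader subunit Rfc4 had 119.4 and 116.0 TPM with auxin and 165.6 and 154.6 TPM untreated (-0.44, SE 0.06). Prim2 fell by 0.37, and E2f2 and Dna2 rose, by 0.53 and 0.42. E2f2 was at 6.84 TPM or less in the libraries of this line. Of 55 other mitosis genes 1 rose and 14 fell in SUZ12-AID, 0 passed with limma in MTF2-AID (1 at an unadjusted p under 0.05), and 5 rose and 16 fell in AID-JARID2. That is 1.82% and 25.5% in SUZ12-AID, against 15.1% and 4.05% of all genes, and 9.09% and 29.1% in AID-JARID2, against 19.5% and 17%. The spindle gene Ckap2 rose in both lines, with 71.0 and 83.5 TPM in SUZ12-AID cells with auxin and 55.8 and 60.8 TPM untreated, and 85.6 and 78.8 TPM in AID-JARID2 cells with auxin and 53.5 and 58.9 TPM untreated. Prc1, Espl1 and Kif2c fell in SUZ12-AID by 0.38, 0.37 and 0.37, and Kif15 and Ndc80 fell in AID-JARID2 by 0.46 and 0.41, while the phosphatase gene Cdc25b rose by 0.41.

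Genes that brake or permit entry into the cycle included larger changes. Of 12 inhibitors of cyclin-dependent kinases and D cyclins 5 rose (41.7%, against 15.1% of all genes) and 2 fell (16.7%, against 4.05%) in SUZ12-AID. Cdkn2a, a classic Polycomb target whose products block the cycle, had 88.6 and 81.1 TPM with auxin and 5.59 and 7.49 TPM untreated (log2 fold change 3.52, SE 0.18). Cdkn2b had 21.6 and 29.6 TPM with auxin and 5.23 and 5.11 TPM untreated, and the p53 target Cdkn1a had 255.2 and 264.8 TPM with auxin and 150.5 and 140.8 TPM untreated. All 3 were higher with auxin without overlap, and the D cyclin gene Ccnd2 rose by 0.80. In AID-JARID2, 2 rose (16.7%, against 19.5% of all genes) and 6 fell (50.0%, against 17%). Cdkn1a had 139.0 and 136.7 TPM with auxin and 73.96 and 71.7 TPM untreated (0.91, SE 0.05). Cdkn1c fell, to 27.1 and 25.5 TPM with auxin against 103.1 and 87.2 TPM untreated, and Ccnd3 had 191.6 and 201.3 TPM with auxin and 317.4 and 312.2 TPM untreated. Cdkn2b rose but was at 1.15 TPM or less. In MTF2-AID Cdkn1a fell, to 111.0 and 119.2 TPM with auxin against 153.1 and 152.7 TPM untreated (-0.41, SE 0.05, adjusted p = 0.0384 with limma), the opposite direction to the other lines. Of 15 regulators of the RB, E2F and DREAM network 1 rose (6.67%, against 15.1% of all genes) and 3 fell (20%, against 4.05%) in SUZ12-AID, where Rb1, the retinoblastoma gene, had 9.06 and 11.9 TPM with auxin and 4.62 and 6.54 TPM untreated and Mybl2, Rbbp4 and E2f4 fell by 0.26, 0.22 and 0.16. In AID-JARID2, 2 rose and 2 fell (13.3% each way, against 19.5% and 17% of all genes). E2f4, an E2F of the DREAM complex, had 297.8 and 305.5 TPM with auxin and 208.6 and 202.0 TPM untreated (0.55, SE 0.04), Tfdp1, its DNA-binding partner, rose by 0.26, and Rbl2 and E2f5 fell by 0.58 and 0.47. In MTF2-AID 0 of these 15 passed with limma, also without adjustment. Of 10 housekeeping genes 1 rose and 1 fell in SUZ12-AID, against 15.1% and 4.05% of all genes. In MTF2-AID 0 passed with limma (2 at an unadjusted p under 0.05). In AID-JARID2 2 rose and 1 fell, against 19.5% and 17% of all genes.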

How the data were processed

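PolyA-selected, strand-specific RNA-seq was made from 12 libraries, 2 for each of 6 groups. The series' design calls them biological replicates, and nothing further says which steps were separate, so p-values measure the spread between these samples. The values are TPM as the authors deposited them. Reads were aligned to mm10 with STAR 2.6.1d, per the submitters' processing notes, and which program and annotation turned reads into TPM was not stated in any label or file header used. Of 35856 rows 9632 were at 0 in every library, and 0 columns were left unused. The deposited values are TPM and not counts, and a count test was not used. Whole reads recovered from the steps between low values served for depth, 10138920 to 17173072 reads per library. They also gave the reads behind each member and the simulated data named below.

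Values were analysed as log2(TPM + 1), on which a fold change understates the change of low genes, for genes that reached 1 TPM in 2 or more libraries. One limma fit (limma 3.58.1, R 4.3.3) held all 12 libraries with 1 term per group, moderated with a variance trend (residual degrees of freedom 6, prior 3.9). P-values are two-sided, with Benjamini-Hochberg adjustment over 15663 genes and a threshold of 0.05. For a single gene, an exact permutation test of 2 libraries against 2 cannot go below 0.333. The fit was tested on simulated data. Positions and lengths are from GENCODE vM21 (mm10), whose transcripts may not be those behind the TPM, and promoters from RefSeq GRCm38.p6. Other work used Python 3.11.15, numpy 2.4.6, scipy 1.17.1, pandas 2.3.3 and matplotlib 3.10.9. Members, gene lists and motifs were chosen with earlier results of these data known. Levels are given by rule for up to 4 members of each class with the largest absolute change that passed in each line. They are also given for the 2 of each class with the highest mean, and for up to 2 of each class in each difference or untreated pair. Mcm2, Mcm6 and Ccne2 were added to these after their values were seen. Up to 4 genes of each other list that passed in each line are named, some with levels and others with the fold change only. Alternatives covered the pseudocount, the filter, the scaling, the variance model, a replicate block, each line alone and each library left out, and 2 were added after the data were seen.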

Additional observations from a re-analysis of the deposited data

Results flagged for a closer look

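The results below differed between lines in the size or direction of the auxin effect, by a test of the difference itself with limma and Benjamini-Hochberg adjustment, and values are differences of log2 fold changes. With 2 libraries a group, which of 2 differing libraries is the unusual one cannot be told within the group. Untreated SUZ12-AID replicate 1 differed from replicate 2 with transcript length, as given above, and each difference from SUZ12-AID below uses both.

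AID-JARID2 minus SUZ12-AID was 1.01 for Ccne1, 0.44 for Mcm5, 0.36 for Mcm2, 0.35 for Mcm3 and 0.30 for Rrm2 among the replication genes. It was 0.34 for Ccnb1, 0.325 for Aurka and 0.23 for Cdc20 among the mitosis genes, where Cdc20 passed in 14 of 24 other settings.

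MTF2-AID minus SUZ12-AID was 0.49 for Gins2, 0.45 for Cdc6, 0.395 for Mcm5, 0.37 for Mcm6, 0.315 for Mcm3, 0.31 for Mcm7, 0.30 for Pcna and 0.298 for Rrm2. Among the mitosis genes it was 0.46 for Top2a, 0.456 for Bub1b, 0.42 for Aurka, 0.39 for Ccnb1, 0.385 for Ccnb2, 0.285 for Cenpa, 0.28 for Tpx2 and 0.23 for Plk1. Of the 24 other settings, Plk1 passed in 7, Rrm2 in 8, Top2a and Tpx2 in 12 and Ccnb1 in 13.

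AID-JARID2 minus MTF2-AID was 0.91 for Ccne1, -0.53 for Gins2 and -0.39 for Mcm6. Among the mitosis genes it was -0.50 for Top2a, -0.47 for Ccnb2, -0.36 for Birc5, -0.33 for Cenpa and -0.23 for Tpx2, which passed in 11 of 24 other settings.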

How the results depend on the processing

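No result changed sign past the threshold under any alternative. In MTF2-AID 0 members passed in all of them. The counts below are of members that passed, in either direction, and the cause of each shift was not tested. In SUZ12-AID the 13 replication genes became 5 with a variance weight per line, 7 with no variance trend and 20 with chromosome medians removed. They became 20 with the length trend removed and 0 from the line alone. The 9 mitosis genes became 14 with median-of-ratios scaling, 5 with the weight, 16 with the length trend removed and 0 from the line alone. Lower calls over all genes in SUZ12-AID moved too, from 635 to 215 with the weight and 452 with no trend. They became 1549 with median-of-ratios scaling, 1338 with chromosome medians removed and 2323 of 13168 with the length trend removed. Any line fitted alone leaves 2 residual degrees of freedom. Over all genes such a fit still called 3448 higher and 2948 lower for AID-JARID2. It called 129 higher and 27 lower for SUZ12-AID, and 0 either way for MTF2-AID. The variance weight was lowest for SUZ12-AID, at 0.5, against 1.29 (MTF2-AID) and 1.54 (AID-JARID2). In AID-JARID2 the 9 mitosis genes became 5 with no trend.

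For AID-JARID2 minus SUZ12-AID, the 5 replication genes became 10 with median-of-ratios scaling, 3 with no trend, 9 with chromosome medians removed and 12 with the length trend removed. The 3 mitosis genes became 1 with no filter, 6 with median-of-ratios scaling, 1 with no trend, 7 with chromosome medians removed and 7 with the length trend removed. For MTF2-AID minus SUZ12-AID, the 8 replication genes became 5 with quantile normalization, 2 with no trend and 15 with the length trend removed. The 8 mitosis genes became 5 with no filter, 5 with the weight, 2 with no trend and 16 with the length trend removed. Over all genes MTF2-AID minus SUZ12-AID was higher for 313 as reported and for 1513 with the length trend removed. AID-JARID2 minus SUZ12-AID was higher for 1410 and 2581 genes in the same settings. For AID-JARID2 minus MTF2-AID, the 3 replication genes became 5 with median-of-ratios scaling, 8 with the weight, 5 with chromosome medians removed and 8 with the length trend removed. The 5 mitosis genes became 8 with median-of-ratios scaling, 9 with the weight and 8 with the length trend removed.

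For untreated MTF2-AID against SUZ12-AID, the 2 replication genes became 1 with no filter, the weight, no trend or chromosome medians removed, and 5 with the length trend removed. The 4 mitosis genes became 2 with no filter, 2 with the weight, 1 with no trend and 9 with the length trend removed. For untreated AID-JARID2 against MTF2-AID, the 8 replication genes became 5 with no trend.

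With each library left out in turn, where a lone library is assumed to vary like the other groups, the counts ranged over 6 to 13 replication and 5 to 15 mitosis genes in SUZ12-AID, 5 to 12 and 4 to 9 in AID-JARID2, and 0 in MTF2-AID. They ranged over 3 to 9 and 0 to 7 for AID-JARID2 minus SUZ12-AID, 2 to 13 and 2 to 13 for MTF2-AID minus SUZ12-AID, and 3 to 8 and 3 to 8 for AID-JARID2 minus MTF2-AID. Between untreated lines they were 1 to 7 and 1 to 7 for MTF2-AID against SUZ12-AID, 3 to 11 and 4 to 13 for AID-JARID2 against SUZ12-AID, and 4 to 9 and 9 to 16 for AID-JARID2 against MTF2-AID.

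With the replicate number as a block, 13 replication and 11 mitosis genes passed in SUZ12-AID, 9 and 9 in AID-JARID2 and 0 in MTF2-AID. Deviations of same-numbered libraries correlated at -0.05 to 0.10 between groups, so the numbers were not taken to pair the samples. Each member had 231 reads or more in each library, and the spread of every group rests on 2 libraries.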
